A study of Mus musculus with 12 samples.

Results

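The 40 genes described here are genes of fibroblasts and of the extracellular matrix, chosen by name and not by their values, out of 32288 gene rows in the count tables of mouse tumors. They comprise 10 collagens, 9 matrix glycoproteins and elastic fibre genes, 4 proteoglycans, 8 remodelling enzymes and their inhibitors, and 9 markers of fibroblasts and related cells. All 40 passed the filter on low counts, and 18804 genes passed it in all. The tumors grew from P815 cells, a mastocytoma line of the DBA/2 strain, placed under the skin of the back of DBA/2 mice of both sexes aged 9 to 10 weeks. P815-IFNγ is 1 clone that carries GAVPO, a blue-light-activated transcription factor driven by the EF-1α promoter, and a 5×UAS promoter that GAVPO switches on to make murine Ifng and Cxcl10. P815-M is 1 clone that carries mRuby and firefly luciferase, which P815-IFNγ also carries, and serves as the control line. Mice of the light groups received blue light in a cycle of 12 h light and 12 h dark for 6 days, starting 7 days after implantation, and mice of the dark groups received none. The paper kept mice of the light groups singly in the cages of the light device and does not state this for the dark groups. Effects of light and of housing may therefore not be told apart. Each of the 4 groups had 3 tumors from 3 mice, so the lines differ by clone as well as by construct, and clone and construct cannot be told apart.

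The libraries were of very unequal depth. The totals of 10 libraries were between 2211234 and 2946792 counts, whereas P815-IFNγ light 3 held 41473500 and P815-IFNγ dark 3 held 42338096. These deep libraries are shown apart throughout and have a term of their own in the model. A floor of 3 counts corresponded to 0.0670 to 0.0694 CPM (counts per 1e+06 of the scaled library total) in the deep pair and to at least 0.93 CPM in the others. The members together held 0.763% to 2.29% of the counts of a library without mitochondrial genes, with the highest share in P815-IFNγ dark 2. The library kit marks strand and its reads run opposite to the transcript, whereas the counting program at its default setting takes reads on the strand of the gene. The mitochondrial gene mt-Nd6, the only protein-coding gene on its strand of the mitochondrial genome, took 29.0% to 47.9% of the counts of the 13 mitochondrial protein-coding genes in the 10 libraries and 3.56% and 3.85% in the deep pair. Counts of the GAVPO sequence, which checks the labels of the lines, were 1040 to 79894 in the 6 P815-IFNγ libraries and 0 to 4 in the 6 P815-M libraries.

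Genes that overlap members on the other strand also separated the deep pair from the rest. The exons of 10 members overlap exons of a gene on the opposite strand, namely Col5a1, Fn1, Fbn1, Eln, Tnc, Lox, Timp3, Pdgfra, Tagln and Pi16, and their values are therefore uncertain. For 8 of these members the count tables list such neighbours, 10 in all, and 8 of the 10 neighbours were higher in each of the 10 libraries than in either deep library, by 25.3 to 685 times on mean CPM. Apol7d, an antisense gene that overlaps 292 bases of Fn1 exons, stood at 435 to 3079 CPM in the 10 libraries and at 1.02 and 3.26 CPM in the deep pair, while Fn1 itself was at 784 to 3052 and at 850 and 738 CPM. Gm9913, which overlaps 2442 bases or 20.1% of the exons of Fbn1, was at 166 to 1036 CPM against 1.13 and 1.47 CPM. Syn3, a synapsin gene of neurons that overlaps 1733 bases or 21.3% of the exons of Timp3, was at 266 to 1284 CPM against 50.0 and 11.2 CPM, whereas Timp3 was at 11.3 to 72.8 CPM in the 10 libraries. Whether reads of the 10 libraries were counted on the strand opposite to the gene was not tested. This question concerns every gene in the 10 libraries, members without such a neighbour included. Fold changes come from the model with its term for depth, whereas values per library, and the counts of members whose groups do not overlap, set the CPM of deep and other libraries side by side, so these counts are also given without the deep pair where a P815-IFNγ group enters.

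**Figure D1:**
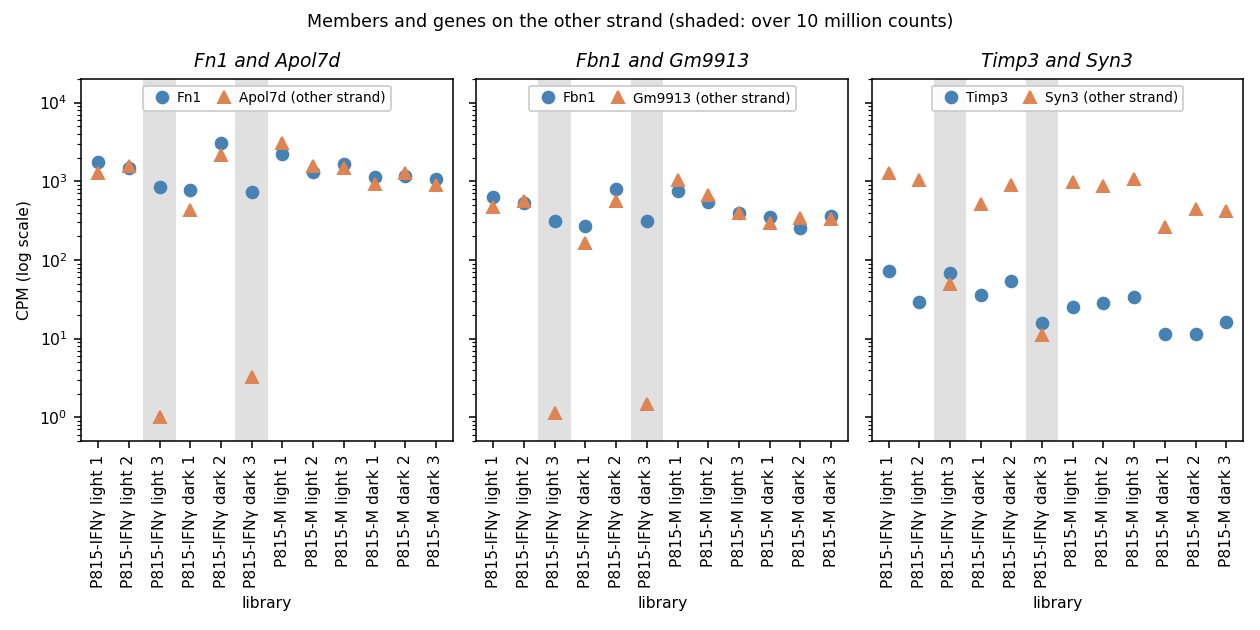
CPM on a log scale (vertical axis) of 3 members (circles) and of the gene that overlaps each on the other strand (triangles) in the 12 libraries (horizontal axis), with the 2 deep libraries shaded. Apol7d lies between 435 and 3079 CPM in 10 libraries and at 1.02 and 3.26 CPM in the deep pair, whereas Fn1 lies between 738 and 3052 CPM in all 12.

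Fibroblasts build the connective tissue that surrounds and divides a tumor. They secrete fibrillar collagens, which lysyl oxidases cross-link, and the small proteoglycans decorin, lumican and biglycan, which bind collagen fibrils and set their spacing. Matrix metalloproteinases cut matrix proteins, and the tissue inhibitors of metalloproteinases (Timp1 to Timp3) block them. Pdgfra, Dpt and Pi16 mark fibroblasts of normal and tumor stroma, whereas Acta2, Tagln and Pdgfrb are also made by pericytes and smooth muscle. In bulk tumor RNA, fewer cells of a type and less RNA per cell cannot be told apart.

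The promoters of the members that rose in P815-M light are shown here as the 250 bases before the RefSeq start site, on build GRCm38.p6 and in the direction of transcription. RefSeq promoters matched 25 of the 40 members, and of the 5 members that rose, Col14a1 had no entry. Capitals mark matches, on either strand, to the 5 motifs searched. TTCNNNGAA is the core of an interferon-gamma activated site. CAGAC is the core of a Smad site, and CACGTG that of an E-box. TATAAA is the TATA box and CCAAT the CCAAT box.
Timp2 (chr11:118355412-118355661, minus strand): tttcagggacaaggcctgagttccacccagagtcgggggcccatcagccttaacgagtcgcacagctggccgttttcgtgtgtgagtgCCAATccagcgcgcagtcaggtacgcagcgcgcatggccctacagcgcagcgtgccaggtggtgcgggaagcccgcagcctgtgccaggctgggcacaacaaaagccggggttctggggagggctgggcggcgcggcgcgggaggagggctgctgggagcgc
Dpt (chr1:164796413-164796662, plus strand): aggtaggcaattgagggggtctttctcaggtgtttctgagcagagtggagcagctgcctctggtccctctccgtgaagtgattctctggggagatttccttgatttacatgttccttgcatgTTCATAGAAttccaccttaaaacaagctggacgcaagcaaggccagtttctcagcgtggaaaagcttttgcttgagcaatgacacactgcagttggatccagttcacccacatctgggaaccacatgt
Pi16 (chr17:29318632-29318881, plus strand): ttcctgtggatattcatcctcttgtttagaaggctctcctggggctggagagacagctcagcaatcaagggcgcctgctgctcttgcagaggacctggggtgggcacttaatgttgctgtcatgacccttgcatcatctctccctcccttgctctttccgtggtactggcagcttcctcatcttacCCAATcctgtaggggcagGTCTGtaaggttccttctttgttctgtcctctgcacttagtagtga
Thbs2 (chr17:14694263-14694512, minus strand): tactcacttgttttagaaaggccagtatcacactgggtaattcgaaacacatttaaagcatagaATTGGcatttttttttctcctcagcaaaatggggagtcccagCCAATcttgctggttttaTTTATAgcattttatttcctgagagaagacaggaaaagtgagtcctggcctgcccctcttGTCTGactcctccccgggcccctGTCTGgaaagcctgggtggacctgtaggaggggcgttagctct
Timp2 held a CCAAT box 162 bases before the start site, and Dpt held the interferon-gamma activated site at 128 bases. Pi16 held a CCAAT box at 64 bases and a Smad site at 46 bases. Thbs2 held CCAAT boxes at 144 and 186 bases, a TATA box on the reverse strand at 126 bases and Smad sites at 43 and 66 bases. Over the 25 members with a promoter, the Smad letters were in 15 (60%) against 45.8% of 27025 RefSeq promoters of the same length, the CCAAT box in 6 (24%) against 37.5%, the TATA box in 6 (24%) against 14.3%, the interferon-gamma activated site in 1 (4%) against 8.13% and the E-box in 1 (4%) against 6.86%. A match is a match of letters and not a bound site. In the GENCODE annotation Pi16 starts at base 29317680 and Timp2, on the minus strand, at base 118355740. Their windows, set by the RefSeq start sites, therefore lie inside the gene as GENCODE draws it. No motif of the 5 was in all 4 windows shown.

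The levels of the members spanned 3 orders of magnitude. Per kilobase of exon, the mean of the 10 libraries was highest for the fibrillar collagen gene Col1a1 at 341 CPM per kb, followed by Col3a1 at 271, Fn1, the cell-binding glycoprotein fibronectin, at 134, and Sparc, a collagen-binding glycoprotein of fibroblasts, at 119 CPM per kb. In CPM, without division by length, Col1a1 was at 1578 to 4462 CPM and Col3a1 at 1840.4 to 5706 CPM in the 10 libraries. Fap, a surface protease of activated fibroblasts, and Fmod, the proteoglycan fibromodulin, stood at the bottom with 0.509 and 0.136 CPM per kb. Fmod was at 0 in the 3 P815-M light libraries and at 3 counts or fewer in all but P815-IFNγ dark 1 and the deep pair, so no fold change is given for it. P815-IFNγ dark 2 held the highest value of 28 of the 40 members among the 10 libraries, and P815-IFNγ dark 1 that of another 7.

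**Figure D2:**
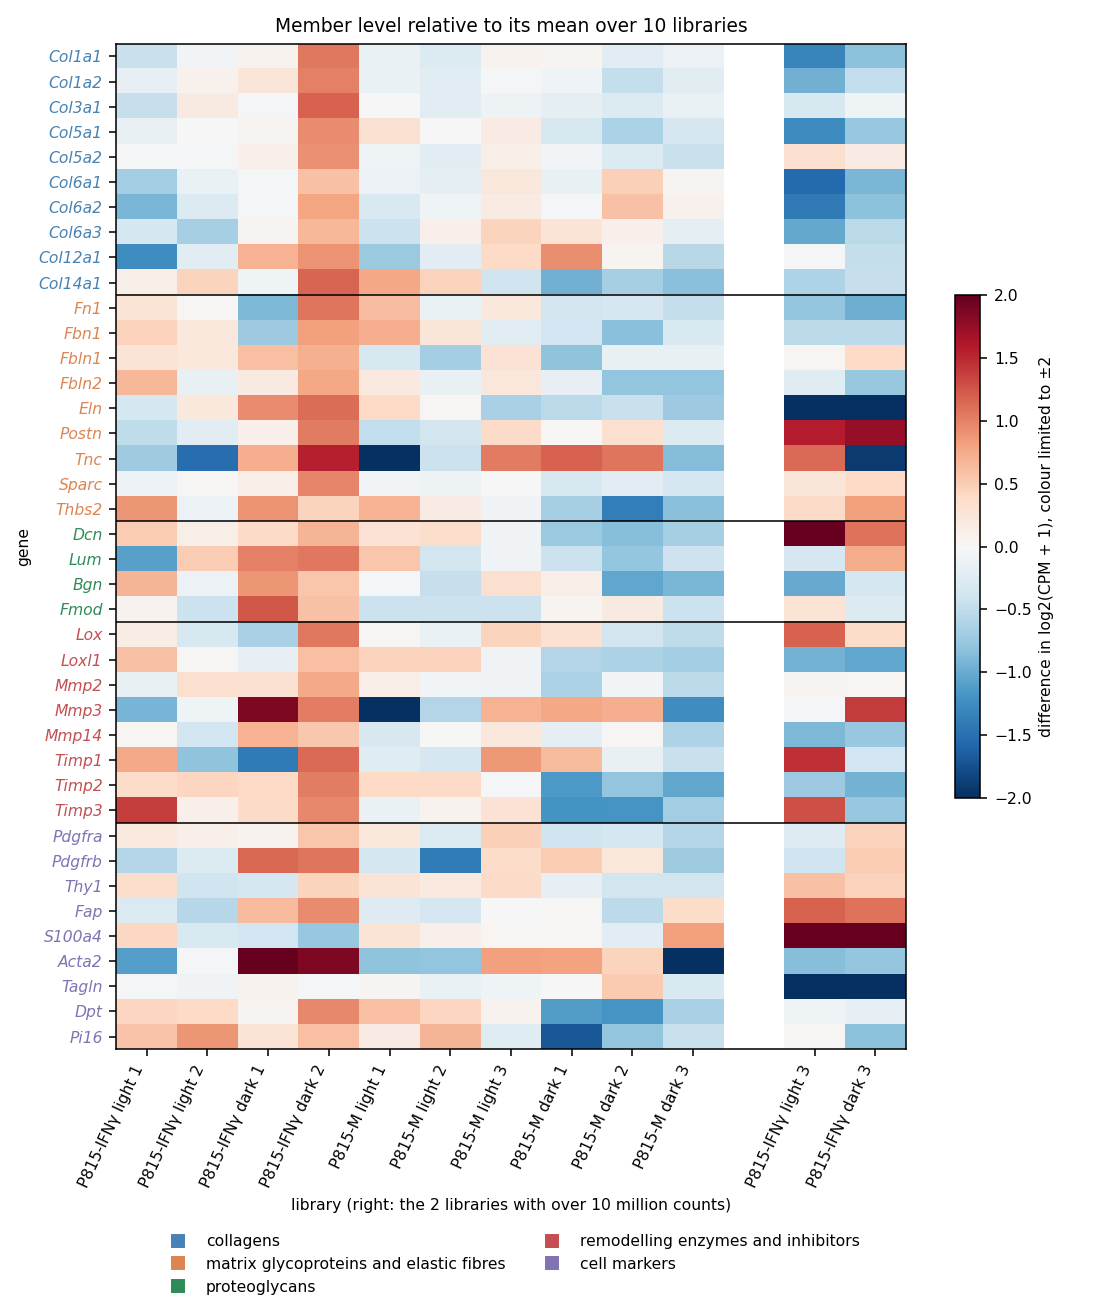
Difference of log2(CPM + 1) from the mean of the 10 libraries (colour, limited to ±2) for the 40 members (rows, by class) in the 10 libraries and, to the right, in the 2 deep ones. P815-IFNγ dark 2 is the highest of the 10 libraries for 28 members, and in the deep pair S100a4 is far above and Eln and Tagln far below the 10 libraries.

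The effect of light in the control line was compared first, since P815-M carries no light switch. Of the 40 members, 5 rose in P815-M light and none fell, namely Timp2, Dpt, Thbs2, Col14a1 and Pi16. Over all genes tested, 1.03% were called in this comparison and 0.947% were called as higher and 0.0851% as lower in light, where called means an adjusted p no larger than 0.05 in edgeR's quasi-likelihood test together with a change of 1 or more on the log2 scale. The median log2 fold change of the members was 0.24, and 0.25 without Fmod, against 0.01 over all genes tested, 27 of the 40 were positive beside 51.1% of all genes, and the 13 members with an unadjusted p under 0.05 were all higher in light, beside 7.47% of all genes. Of the 38 members that reached a mean of 3 CPM in the higher group, the P815-M light and dark libraries did not overlap in 16, all higher in light, beside 12.0% of such genes that were higher without overlap and 10.4% that were lower.

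Timp2, which inhibits metalloproteinases and takes part in the activation of Mmp2 at the cell surface, had the smallest adjusted p. Its levels were 226, 223 and 167 CPM in P815-M light and 76.1, 98.5 and 81.9 CPM in P815-M dark, so that each light tumor was above each dark tumor. The fitted log2 fold change was 1.27 ± 0.20 (SE, adjusted p = 0.00334, edgeR), and the exact two-sided permutation test gave the smallest p that 3 against 3 allows, 0.1. Dpt, which encodes dermatopontin, a small matrix protein that binds decorin, was at 108, 96.2 and 75.1 CPM in light and at 32.4, 30.7 and 45.3 CPM in dark. The ranges were again apart, with a log2 fold change of 1.36 ± 0.23 (SE, adjusted p = 0.00553, edgeR). Timp2 and Dpt were also called in the 10 libraries without the deep pair, where 2 members and 0.927% of genes tested passed, with adjusted p of 0.00863 and 0.0155 (edgeR). They were called in 24 of 25 alternative settings, the exception being the fit without the depth term.

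The other 3 members that rose had wider spread or lower counts. Thbs2, the matricellular glycoprotein thrombospondin 2, was at 31.7, 21.5 and 18.3 CPM in light and at 11.7, 6.77 and 10.3 CPM in dark, a log2 fold change of 1.29 ± 0.32 (SE, adjusted p = 0.0486, edgeR). Col14a1, which encodes a collagen that binds to the surface of fibrils, was at 126, 102 and 55.5 CPM in light and at 37.5, 46.4 and 40.7 CPM in dark, and its log2 fold change was 1.19 ± 0.29 (SE, adjusted p = 0.0455, edgeR). Pi16, a marker of a perivascular and adventitial fibroblast state, was at 120.4, 171 and 89.9 CPM in light and at 32.0, 61.5 and 78.6 CPM in dark, with 1.15 ± 0.27 (SE, adjusted p = 0.0388, edgeR). None of the 3 overlapped between light and dark, but none was called in the 10 libraries alone, where the adjusted p were 0.0787, 0.0872 and 0.0629 (edgeR). Dcn, the proteoglycan decorin, and Loxl1, a lysyl oxidase that cross-links elastin, passed the adjusted p but not the fold minimum. Dcn was at 99.1, 103 and 76.9 CPM in light and at 47.6, 44.3 and 50.2 CPM in dark, with a log2 fold change of 0.97 ± 0.23 (SE, adjusted p = 0.0386, edgeR). For Loxl1 the levels were 119, 119.7 and 81.8 CPM against 57.0, 55.2 and 53.5 CPM, with 0.95 ± 0.22 (SE, adjusted p = 0.0318, edgeR). With P815-M light 1, P815-M light 2, P815-M dark 1 or P815-M dark 2 left out, only Timp2 and Dpt were called, beside 0.326% to 0.502% of genes tested. Without P815-M dark 3, 3 members and 0.731% of genes were called, and without P815-M light 3, 7 members and 1.05% of genes.

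**Figure D3:**
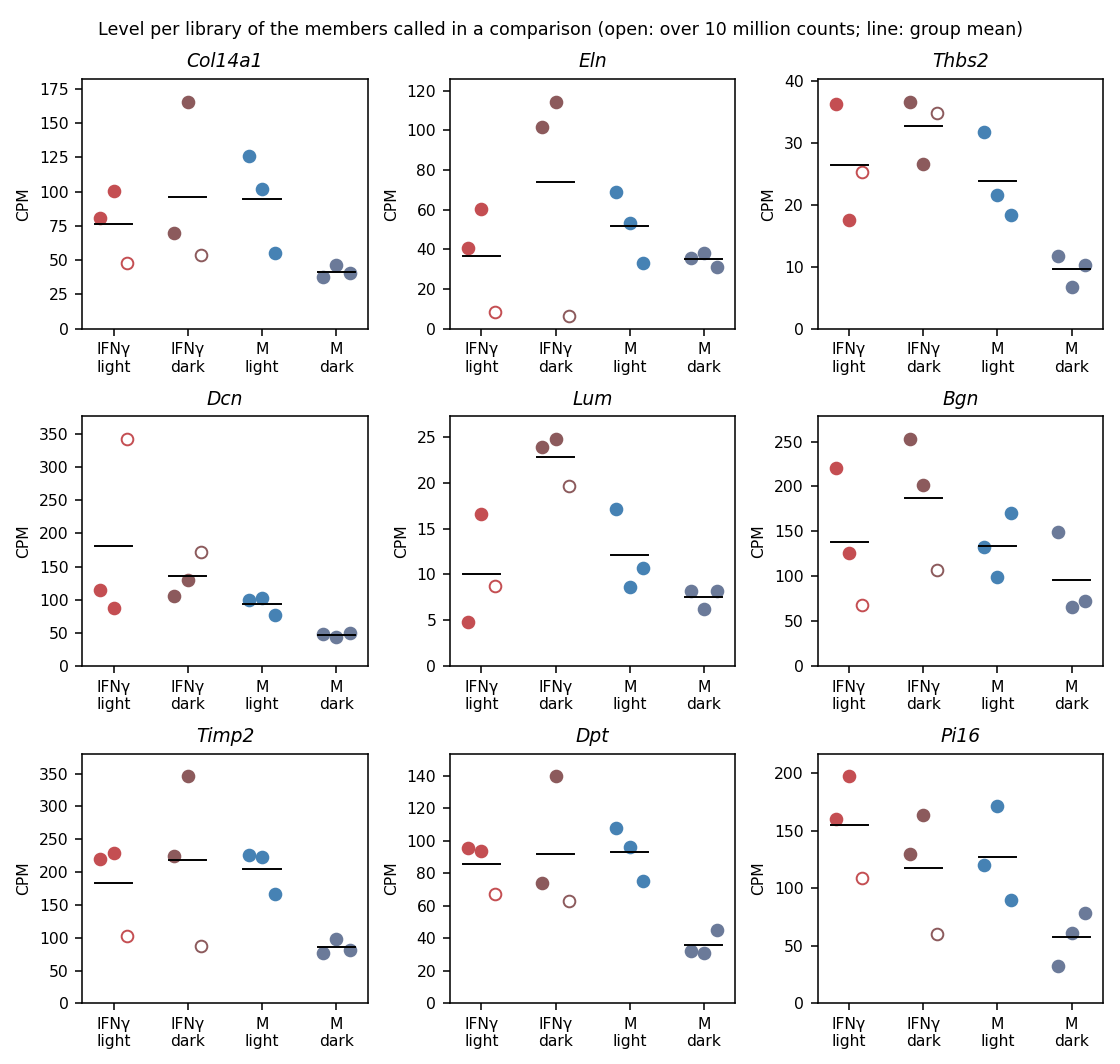
CPM (vertical axes, from 0) of the 9 members called in any comparison, with 1 point per library, open points for the 2 deep libraries and a line at the group mean. Timp2, Dpt, Thbs2, Dcn and Lum have the P815-M dark libraries at or below 98.5, 45.3, 11.7, 50.2 and 8.23 CPM, under each P815-M light library.

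By class, the most abundant collagens did not separate in P815-M. Col1a1 was at 1950.3, 1769.8 and 2263 CPM in light and at 2237, 1835 and 1984 CPM in dark, and Col3a1 at 2545, 2190.2 and 2347 CPM against 2219, 2084 and 2304 CPM, with overlapping ranges for both. Col5a1, whose collagen nucleates fibrils, was at 281, 226 and 254 CPM in light and at 182, 146 and 179 CPM in dark, with no overlap but no call (adjusted p = 0.193, edgeR). Its neighbours 2810430I11Rik and Gm13372 on the other strand were also higher in each P815-M light library than in each P815-M dark library. Over all genes tested, 1.03% were called and 51.1% were positive in this comparison, with a median of 0.01, and the counts by class stand beside these shares. Of the 10 collagens, 1 was called, 6 had a positive and 4 a negative log2 fold change, and their median was 0.05, or -0.02 without P815-M light 3. Of the 9 glycoprotein and elastic fibre genes 1 was called and 7 were positive, with a median of 0.56. Fn1 was at 2244, 1323 and 1679 CPM in light and at 1132, 1153 and 1052 CPM in dark, apart between the groups but not past the adjusted threshold. Its neighbour Apol7d on the other strand was at 3079, 1578 and 1485 CPM in light and at 913, 1257 and 896 CPM in dark, also apart. Of the 8 remodelling genes 1 was called, with a median of 0.34, and of the 9 cell markers 2 were called, with a median of -0.12 that turned positive on leaving out P815-M light 1, P815-M light 2 or any P815-M dark library, up to 0.58 without P815-M dark 1. Timp3, a matrix-bound inhibitor, was at 24.9, 28.7 and 33.5 CPM against 11.3, 11.5 and 16.5 CPM, and Syn3 on its other strand at 968, 860.0 and 1063 CPM against 266, 438 and 419 CPM, so that both were higher in each light tumor.

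In P815-IFNγ tumors, which carry the light switch, no member was called between light and dark. Over all genes tested, 2 were called (0.0106%), and at an unadjusted p under 0.05 there were 17 members, 15 lower and 2 higher in light, beside 8.34% of all genes tested, 4.20% lower and 4.14% higher. The same model fitted with DESeq2 called 58 genes and 0 members. The median log2 fold change of the members was -0.41, also without Fmod, against -0.03 over all genes. Of the 40, 31 were negative beside 53.3% of all genes, and all 10 collagens were among them, with a median of -0.66. The groups did not overlap in 4 members, Mmp3, Pdgfrb, Lum and Fbln1, all lower in light, beside 2.49% of genes that were lower and 0.791% that were higher without overlap. Without the deep pair, 2 light and 2 dark libraries remained, and 19 members were lower and 1 was higher without overlap, beside 21.8% and 20.7% of genes.

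Mmp3, the metalloproteinase stromelysin 1, was at 2.82, 5.86 and, in the deep library, 6.13 CPM in P815-IFNγ light and at 25.4, 13.7 and 18.1 CPM in P815-IFNγ dark. Its log2 fold change was -1.91 ± 0.56 (SE, adjusted p = 0.282, edgeR). Pdgfrb, the PDGF receptor of pericytes and fibroblasts, was at 10.9, 13.7 and 12.5 CPM in light and at 38.5, 36.5 and 24.4 CPM in dark, with -1.35 ± 0.34 (SE, adjusted p = 0.173, edgeR). Lum, the proteoglycan lumican, was at 4.83, 16.6 and 8.77 CPM against 23.9, 24.8 and 19.7 CPM, with -1.19 ± 0.34 (SE, adjusted p = 0.265, edgeR). In each of the 3, the deep libraries lay on the same side as the others of their group, but the adjusted p missed the threshold. Acta2, the smooth muscle actin of myofibroblasts and pericytes, was at 3.62 and 8.78 CPM in light and at 42.2 and 35.2 CPM in dark, but at 4.51 and 4.82 CPM in the deep pair, with -1.63 ± 0.68 (SE, adjusted p = 0.539, edgeR).

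The collagens were highest in 1 dark tumor. Col1a1 was at 1578 and 2076 CPM in the light libraries other than the deep one and at 2247 and 4462 CPM in dark, with 859 and 1219 CPM in the deep pair, and its log2 fold change was -0.75 ± 0.22 (SE, adjusted p = 0.300, edgeR). Col3a1 was at 1840.4 and 2866 CPM in light and at 2481 and 5706 CPM in dark, with 2027 and 2389 CPM in the deep pair, and -0.61 ± 0.25 (SE, adjusted p = 0.523, edgeR). Sparc was at 400.2 and 444 CPM against 479 and 860.2 CPM, with 514 and 574 CPM in the deep pair, and -0.50 ± 0.19 (SE, adjusted p = 0.493, edgeR). The highest value of each of the 3 came from P815-IFNγ dark 2, and without that library the median log2 fold change was -0.23 over all members and -0.37 over the collagens. Timp2 and Dpt, which rose with light in P815-M, did not separate here: Timp2 was at 220.0, 229 and 103 CPM in light and at 224, 346 and 87.9 CPM in dark, and Dpt at 95.7, 93.7 and 67.3 CPM against 73.9, 139.7 and 63.1 CPM.

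**Figure D4:**
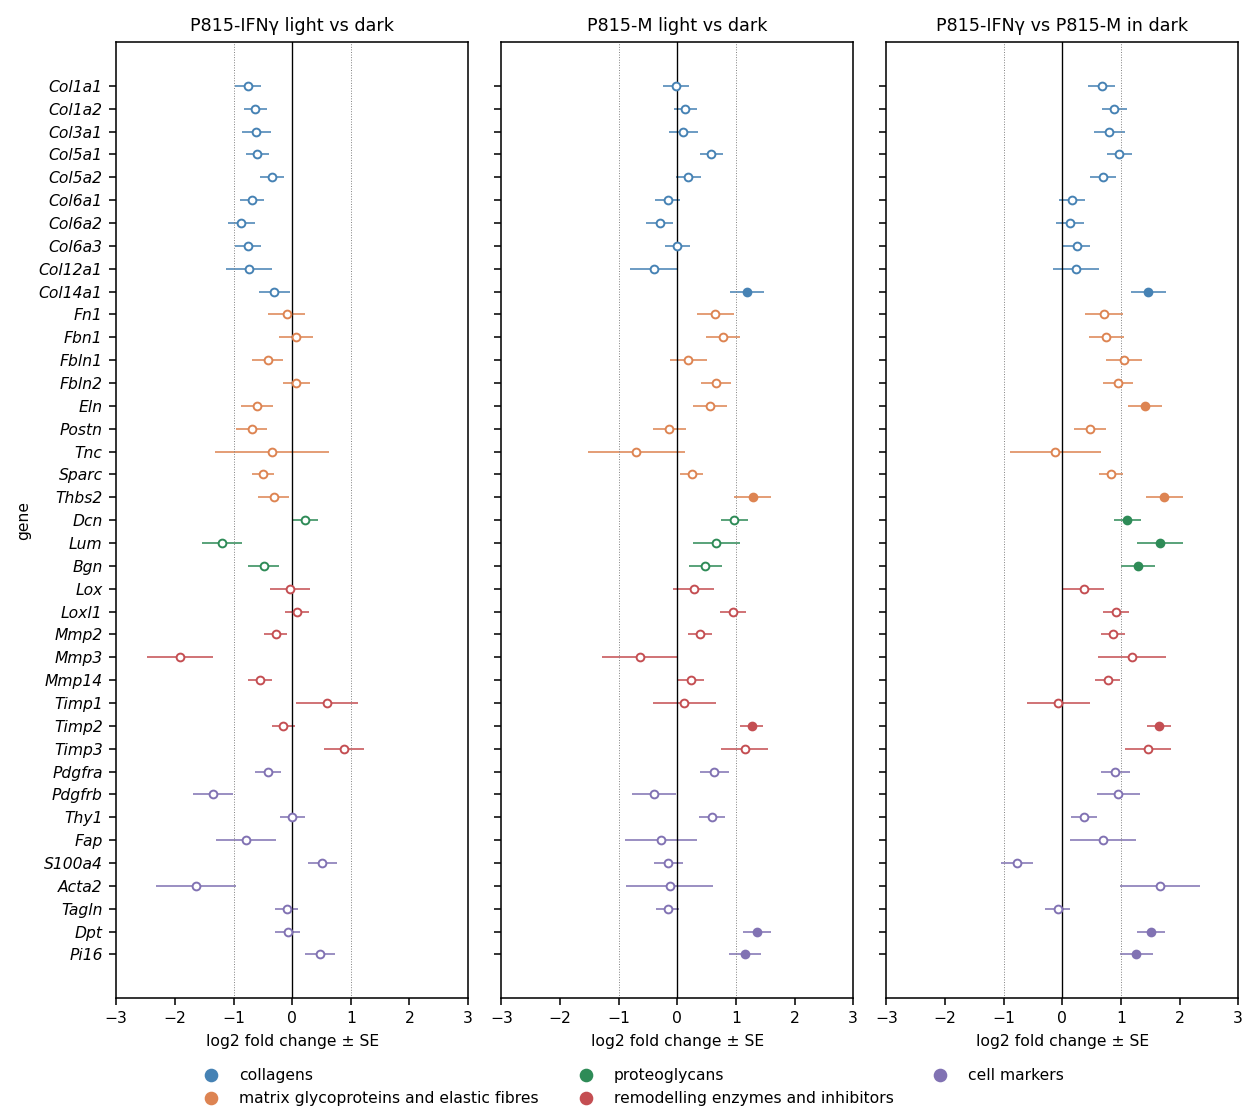
Log2 fold change with its SE (horizontal axis) of 39 members, all but Fmod, in 3 comparisons, with filled points for called members, dotted lines at -1 and 1, and colours for the classes. All 10 collagens lie below 0 in P815-IFNγ light against dark, and 35 of the 39 lie above 0 in P815-IFNγ against P815-M in dark, where the 9 called members are all positive.

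Between the lines in light, no member was called, beside 82 called genes (0.436%) over all genes tested. The median log2 fold change of the members was 0.07, and 0.06 without Fmod, against 0.02 over all genes, and lay between -0.10 and 0.20 over the alternatives. At an unadjusted p under 0.05 there were 3 members, 2 higher and 1 lower in P815-IFNγ, beside 11.1% of all genes, 5.27% higher and 5.82% lower, and DESeq2 called 0 members. No member separated the 3 P815-IFNγ light from the 3 P815-M light libraries, whereas 11.6% of genes were higher and 9.01% lower without overlap. Without the deep pair the count was again 0, beside 15.1% and 13.7% of genes.

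Between the lines in dark, 9 members rose in P815-IFNγ relative to P815-M and none fell, beside 290 called genes (1.54%) over all genes tested, 1.12% higher and 0.425% lower. The 9 were Timp2, Thbs2, Lum, Dpt, Col14a1, Eln, Bgn, Pi16 and Dcn. The median log2 fold change of the members was 0.88, and 0.87 without Fmod, against 0.06 over all genes, and 36 of 40 were positive beside 55.0% of all genes. At an unadjusted p under 0.05 there were 26 members that were higher, beside 9.24% of all genes, and 1 that was lower, beside 7.07%. The libraries did not overlap in 14 members, all higher in P815-IFNγ, beside 12.3% of genes that were higher and 12.9% that were lower. Without the deep pair, 26 members were higher and 1 was lower without overlap, beside 19.7% of genes that were higher and 19.0% that were lower. This comparison and that of light in P815-M share the 3 P815-M dark libraries, so the 5 members called in both are not independent evidence.

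Of the 4 proteoglycans 3 were called, all but Fmod, beside 1.54% of all genes tested. Without P815-IFNγ dark 2 only Bgn of these was called, beside 1.16% of genes tested. Lum was at 23.9, 24.8 and 19.7 CPM in P815-IFNγ dark and at 8.20, 6.25 and 8.23 CPM in P815-M dark, a log2 fold change of 1.67 ± 0.39 (SE, adjusted p = 0.0259, edgeR). Dcn was at 106, 129 and 171 CPM against 47.6, 44.3 and 50.2 CPM, with 1.11 ± 0.23 (SE, adjusted p = 0.0137, edgeR). Both were apart in each of the libraries, whereas Bgn, the proteoglycan biglycan, overlapped at 253, 201 and 107 CPM against 149, 65.6 and 72.0 CPM, with 1.29 ± 0.29 (SE, adjusted p = 0.0216, edgeR). Among the other classes, 1 of 10 collagens, 2 of 9 glycoproteins, 1 of 8 remodelling genes and 2 of 9 cell markers were called. Mmp2, a gelatinase of stromal cells, was at 137, 189 and 113 CPM against 71.0, 107 and 76.1 CPM, with no overlap and a log2 fold change of 0.87 ± 0.21 (SE, adjusted p = 0.0309, edgeR) that did not reach the fold minimum. Col5a1 was at 236, 441 and, in the deep library, 134 CPM against 182, 146 and 179 CPM, with 0.97 ± 0.21 (SE, adjusted p = 0.0162, edgeR), also under the fold minimum.

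Timp2 was at 224, 346 and 87.9 CPM in P815-IFNγ dark, and its log2 fold change over P815-M dark was 1.65 ± 0.21 (SE, adjusted p = 1.65e-04, edgeR). The lowest of these 3 values is the deep library, which lies inside the P815-M dark range of 76.1 to 98.5 CPM, and without the deep pair Timp2 was called as well, with a log2 fold change of 1.74 (adjusted p = 0.0004, edgeR). Eln, the elastic fibre protein elastin, was at 102, 115 and, in the deep library, 6.27 CPM against 35.5, 38.0 and 31.3 CPM, with 1.41 ± 0.29 (SE, adjusted p = 0.0126, edgeR), and without the deep pair it was called with 1.63 (adjusted p = 0.00396, edgeR). Gm30003, on the other strand of Eln, was at 32.3, 42.2 and, in the deep library, 0.0446 CPM against 21.9, 14.6 and 15.2 CPM. For Pi16, at 130.0, 163 and 60.3 CPM against 32.0, 61.5 and 78.6 CPM, the log2 fold change was 1.26 ± 0.28 (SE, adjusted p = 0.0196, edgeR), and its deep library too lay inside the P815-M dark range. Thbs2, Dpt and Col14a1 were higher in each P815-IFNγ dark library, the deep one included. Thbs2 was at 36.6, 26.5 and 34.7 CPM against 11.7, 6.77 and 10.3 CPM, with 1.74 ± 0.32 (SE, adjusted p = 0.00685, edgeR). Dpt was at 73.9, 139.7 and 63.1 CPM against 32.4, 30.7 and 45.3 CPM, with 1.51 ± 0.24 (SE, adjusted p = 0.00188, edgeR). Col14a1 was at 69.5, 166 and 53.4 CPM against 37.5, 46.4 and 40.7 CPM, with 1.47 ± 0.30 (SE, adjusted p = 0.0120, edgeR).

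The number of members called between the lines in dark depended on single libraries and on the depth term. Without P815-IFNγ dark 2, 4 members were called, namely Timp2, Thbs2, Dpt and Bgn, beside 1.16% of genes tested, and the median was 0.60. Without P815-IFNγ dark 1, 15 members were called, beside 1.14% of genes tested. In the 10 libraries without the deep pair, 12 were called, with Col5a1, Fbln2 and Timp3 added to the 9, beside 2.19% of genes tested, and with neither a depth term nor removal of the deep pair 0 members and 2 genes were called. In P815-M light against dark, the counts were 2 of 40 in the 10 libraries and 0 without the depth term, where edgeR called 0 genes in all and 6 members were under an unadjusted p of 0.05, beside 13 with the term. Without the term in the comparison of the lines in dark, 13 members were under an unadjusted p of 0.05, beside 27 with it. With the term, 12.5% of all genes tested were under it in P815-M and 16.3% between the lines in dark. The shares of all genes without the term are not given here, so the counts of members without it have no background to be read against.

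Whether light acted differently in P815-IFNγ and P815-M was tested directly, and no member passed. Over all genes, 3 were called (0.0160%). At an unadjusted p under 0.05 there were 17 members, all with a smaller or more negative light effect in P815-IFNγ, beside 5.73% of all genes and 3.88% that were lower, and DESeq2 called 1 member, Timp2. The median difference over the members was -0.73, and -0.74 without Fmod, against -0.04 over all genes, and 35 of 40, all 10 collagens included, were negative beside 53.2% of all genes. Without P815-IFNγ dark 2 the median was -0.45. Timp2 had the smallest adjusted p at -1.42 ± 0.28 (SE, adjusted p = 0.135, edgeR), followed by Dpt at -1.44 ± 0.31 (SE, adjusted p = 0.202, edgeR). The log2 differences were -1.60 ± 0.41 for Thbs2, -1.49 ± 0.39 for Col14a1 and -1.86 ± 0.52 for Lum (SE, adjusted p = 0.366, 0.393 and 0.460, edgeR). For the abundant collagens they were -0.74 ± 0.32 for Col1a1 and -0.71 ± 0.35 for Col3a1 (SE, adjusted p = 0.812 and 0.862, edgeR). In the groups themselves, the P815-M dark tumors had the lowest mean of the 4 groups for Timp2 at 85.5 ± 11.6 CPM (SD, n = 3), Dpt at 36.1 ± 7.95 and Thbs2 at 9.59 ± 2.54 CPM.

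Within the 6 P815-IFNγ libraries, single members differed widely between the deep pair and the other 4. S100a4, a calcium-binding protein of fibroblasts and of many immune and tumor cells, was at 595 and 492 CPM in the deep pair and at 21.1 to 48.7 CPM in the other 4, and ranked first per kilobase of exon in the deep pair at 930.1 CPM per kb and sixth in the 10 libraries. Eln was at 8.15 and 6.27 CPM in the deep pair against 40.6 to 115 CPM, and Tagln, a smooth muscle cytoskeletal protein, at 7.52 and 8.35 CPM against 60.0 to 66.4 CPM. Postn, the matricellular protein periostin, was at 131 and 148 CPM against 30.2 to 90.5 CPM, and Dcn at 343 and 171 CPM against 87.3 to 129 CPM. By the mean of log2(CPM + 1), 3 members were more than 1 above and 12 more than 1 below the other P815-IFNγ libraries, 37.5% of the members beside 43.9% of the genes tested. Between the deep libraries, which are 1 light and 1 dark tumor with no replicate, Tnc, a matrix glycoprotein of wounds, was at 36.0 CPM in light and 3.46 CPM in dark, Timp3 at 67.8 and 15.7 CPM, and Mmp3 at 6.13 and 18.1 CPM.

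Genes that act around the members were counted in lists fixed by name. Of 14 basement membrane genes, 1 rose in P815-M light and 2 in P815-IFNγ dark over P815-M dark, and none fell. Beside these calls and those of the next 2 lists, 1.03% of all genes tested were called in P815-M and 1.54% between the lines in dark. Lamb2, a laminin chain, was at 68.5, 67.0 and 47.9 CPM in P815-M light and at 19.1, 30.2 and 23.0 CPM in P815-M dark, with no overlap and a log2 fold change of 1.35 ± 0.23 (SE, adjusted p = 0.00579, edgeR). Between the lines in dark the value of Lamb2 was 1.64 ± 0.24 and that of Nid1, the laminin-binding protein nidogen 1, was 1.09 ± 0.23 (SE, adjusted p = 7.44e-04 and 0.0141, edgeR). Lamc1 had the highest mean of the list over the 12 libraries, between 122 and 236 CPM, and Hspg2, the proteoglycan perlecan, was above it in 7 of the 10 libraries, at 117 to 306 CPM. Col4a1, a chain of the collagen of basement membranes, was at 31.0, 13.7 and 40.2 CPM in P815-IFNγ light and at 81.3, 172 and 54.7 CPM in P815-IFNγ dark, with no overlap but no call (adjusted p = 0.301, edgeR). Of 12 matrix receptors, the integrin gene Itgb5 rose in P815-M light with 1.01 ± 0.22 and in P815-IFNγ dark over P815-M dark with 1.01 ± 0.23 (SE, adjusted p = 0.0277 and 0.0229, edgeR), and Cd44, the hyaluronan receptor and the most abundant of the list, fell in the latter comparison by 1.00 ± 0.26 on the log2 scale (SE, adjusted p = 0.0476, edgeR). Of 19 TGF-beta signalling genes, Ltbp1, which tethers latent TGF-beta to the matrix, rose between the lines in dark with 1.51 ± 0.38 (SE, adjusted p = 0.0402, edgeR), and Tgfb1, the most abundant, was between 242 and 355 CPM in all libraries. Of 25 alternative settings, the call of Itgb5 was lost in 16 in P815-M and in 9 between the lines in dark. The call of Cd44 was lost in 15, that of Ltbp1 in 10, that of Nid1 in 4 and each call of Lamb2 in 1. Of 19 genes of collagen biosynthesis and processing, none was called by edgeR in any comparison. In each comparison 1 to 5 of them were under an unadjusted p of 0.05, beside 5.73% to 16.3% of all genes tested. P4hb, the most abundant, was at 280.1 to 500.4 CPM in the 10 libraries.

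Markers of other cells varied between the same libraries. The summed level of 10 endothelial markers was 193 and 214 CPM in P815-IFNγ dark 1 and 2, 98.5 and 112 CPM in the other P815-IFNγ libraries of like depth, 62.7 to 106 CPM in P815-M light and 56.8 to 160 CPM in P815-M dark. That of 7 pericyte markers was 262 to 288 CPM in P815-IFNγ dark and 194 to 214 CPM in P815-IFNγ light without the deep pair, and 212 to 297 CPM over the P815-M libraries. Cspg4 and Notch3 held most of the pericyte sum in the 10 libraries. The median log2(CPM + 1) of the pericyte markers was 4.36 and 4.76 in P815-IFNγ dark 1 and 2. It was 1.14 and 1.56 in P815-IFNγ light 1 and 2, and 0.564 to 3.26 in the P815-M libraries. For the endothelial markers the medians were 3.10 and 3.60 against 1.91 and 2.13 in the same P815-IFNγ libraries. The sum of 10 skeletal muscle markers ranged from 92.9 CPM in P815-M light 1 to 763 CPM in P815-M dark 2, and was 708 and 160 CPM in P815-IFNγ dark 1 and 2 against 120 to 129 CPM in P815-IFNγ light. Myh4, a fast myosin of muscle, was at 19.9, 13.4 and 22.1 CPM in P815-IFNγ dark and at 0 in P815-IFNγ light, and it was called in that comparison and in the 3 others that include a P815-IFNγ group (adjusted p from 5.33e-04 to 0.0118, edgeR). The sum of 8 adipocyte markers was 162 and 234 CPM in P815-IFNγ dark 1 and 2 and 2.88 to 30.7 CPM elsewhere among the 10 libraries, and Cidec, a lipid droplet protein, was called between the lines in dark. The sum of 10 macrophage and monocyte markers was 1616 to 1841 CPM in P815-M light and 746 to 1048 CPM in P815-M dark. All 10 markers were positive there and Lyz2 and C1qa were called, beside 51.1% positive and 1.03% called of all genes tested. Between the lines in dark, C1qa, C1qb and C1qc were called, beside 1.54% of all genes tested. The sum of 10 keratinocyte markers was 61.7 to 152 CPM in the 10 libraries and 543 and 587 CPM in the deep pair, of which Perp, a gene not limited to keratinocytes, held most, and Krt5, Krt14, Krt1 and Trp63 were at 0 in all 12 libraries. The 8 T cell markers summed to 8.78 to 42.8 CPM. Of 10 mast cell markers, Kit, Cpa3, Gata2 and Cma1 were present in all libraries, from 207 CPM upward, whereas Fcer1a, Ms4a2 and Mrgprb2 were near 0. Hdc, Tpsb2 and Mcpt4 were low as well, at 0 to 18, 0 to 12 and 2 to 61 counts in the 10 libraries. The sum of the 10 markers was 1757 to 2669 CPM in the 10 libraries and 10150 and 7823 CPM in the deep pair. The part of these cells in the values of the members was not tested.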

How the data were processed

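RNA was sequenced from 12 P815 tumors in 4 groups of 3 mice. The authors trimmed reads with fastp, aligned them with STAR 2.7.9a to mm10 with the knock-in sequences added and counted them with HTSeq 0.13.5 at default parameters, and deposited the unadjusted counts of reads by gene, 1 library per file. The study later removed mitochondrial counts and adjusted for a batch, which the deposited counts do not hold. Here 13 mitochondrial rows were removed, genes with a total of at least 10 counts were kept (18804 of 32288 rows), and the quasi-likelihood test of edgeR 4.0.16 (R 4.3.3) was fitted to all libraries with TMM scaling, 1 mean per group and 1 term for the 2 libraries with over 1e+07 counts, with Benjamini-Hochberg adjustment over all genes tested. Single members were also compared by an exact two-sided permutation test, whose smallest p is 0.1. The replicates are mice by their labels. Checks on simulated counts preceded the fits. Alternatives were DESeq2 1.42.0 and its size factors, other filters, no term for depth, ComBat-seq of sva 3.50.0, the replicate number as a block and each library left out. The replicate numbers were not taken as pairs. Of 13 pairs of same-numbered libraries from different groups, without the deep pair, 2 had a correlation of deviations above 0.1 (r from -0.230 to 0.162). Of 24 pairs with unlike numbers 4 did (r from -0.162 to 0.154). Each P815-IFNγ group then has 2 libraries, whose deviations mirror each other, so these correlations cannot settle whether the numbers pair libraries.

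Members, lists and the term for depth were chosen with earlier results of these data known. Named with values per library were the 2 most abundant members of each class, every member called and the largest changes among members whose groups did not overlap, and Col5a1, Col4a1, Acta2, Dcn and Loxl1 in single comparisons were added after their values were seen. Counting error at these depths leaves members under about 1.2 CPM at or below 3 counts in most of the 10 smaller libraries. Coordinates and overlaps are those of GENCODE on GRCm38, a build that shares its sequence with mm10. The symbols of 40 rows repeat, none of them a member.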

Additional observations from a re-analysis of the deposited data

Results flagged for a closer look

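Lum, the proteoglycan lumican, stood on opposite sides in the lines. Each P815-IFNγ light library was below each P815-IFNγ dark library (4.83 to 16.6 against 19.7 to 24.8 CPM), and each P815-M light library was above each P815-M dark library (8.62 to 17.1 against 6.25 to 8.23 CPM). The P815-M values rest on few counts, 33, 18 and 24 in light and 21, 12 and 20 in dark. Lum was not called between light and dark in P815-M. In the 10 libraries its log2 fold change there was 0.65 ± 0.40 (SE, adjusted p = 0.502, edgeR). The fitted difference between the light effects was -1.862 on the log2 scale, and its own test did not pass (adjusted p = 0.460, edgeR). Its cause was not tested.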

How the results depend on the processing

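Against 2 genes called in P815-IFNγ light and dark, DESeq2 gave 58, filterByExpr 1, no filter 211, no term for depth 0, the 10 libraries 1, ComBat-seq 122 and the replicate block 62, with 1 to 52 on leaving out a library. Against 0 members there, no filter gave 4 and ComBat-seq 2, all lower, and leaving out a library 0 to 1 (Timp3, higher without P815-IFNγ light 2). Against 194 genes in P815-M, DESeq2 gave 293, no filter 429, no term for depth 0 and single libraries left out 61 to 237. Against 5 members there, DESeq2 size factors, filterByExpr and the 10 libraries each gave 2, no term for depth 0 and single libraries left out 2 to 7. Between the lines in light, against 82 genes, no filter gave 245, no term for depth 3, the 10 libraries 39, ComBat-seq 243, only the libraries compared 140 and single libraries left out 29 to 161. Against 0 members there, no filter gave 1, ComBat-seq 2 and single libraries left out 0 to 1, with Timp3 called in each of the 3. In dark, against 290 genes, no filter gave 640, no term for depth 2, ComBat-seq 489, no minimum fold 441 and single libraries left out 153 to 444. Against 9 members there, no term for depth gave 0, no minimum fold 14 and single libraries left out 4 to 15. For the difference in the light effect, against 3 genes, DESeq2 size factors and filterByExpr gave 1, DESeq2 23, no filter 203, no term for depth 0, ComBat-seq 27, the replicate block 16 and single libraries left out 1 to 14. Against 0 members there, no filter gave 7, all lower, and DESeq2 and the replicate block 1 each, Timp2 in both, with 0 to 0 on leaving out a library.

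After seeing the data, fits were added of the 10 libraries without P815-IFNγ dark 2, which gave 1 gene in P815-IFNγ, 45 genes between the lines in light, and 145 genes and 4 members in dark, and of a replicate block in the 10 libraries, which gave 5, 41 and 445 genes and 14 for the difference in the light effect. The replicate block changed no other count of calls by over 1.5 times. The causes of these differences were not tested. Of 993 fitted values of single genes under the alternatives, 845 kept direction and side of the threshold, 121 lost the call and 27 gained it, and none changed sign. Of 744 medians, 711 moved by less than the spread between libraries. The setting without a minimum fold leaves every fitted value as it is, and leaving out a library of neither compared group touches the values only indirectly. These counts therefore overstate how far the values were put to the test. In the 10 libraries depth limits Fmod, at 7 counts or fewer in each, and Fap, at 3 to 18 counts.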
